A study of Mus musculus with 6 samples.

Results

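Stressed photoreceptors and the Müller cells around them exchange secreted signals, and the transcripts of 10 genes of this exchange were followed in retinas of control, light-exposed and minocycline-treated mice. The 10 genes were taken by symbol from the count table, which lists 23420 genes, and every symbol was found. They are the secreted factors Edn2, Lif, Fgf2 and Cntf, the receptor chains Lifr, Il6st and Osmr, the transcription factor Stat3, and the response genes Socs3 and Cebpd. Of these, 9 held enough counts to be tested and Cntf did not.

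Endothelin 2, encoded by Edn2, is a peptide that photoreceptors release under stress, and its receptor Ednrb is carried by Müller cells, the main glia of the retina. Leukemia inhibitory factor, encoded by Lif, binds Lifr together with gp130, the shared signal chain encoded by Il6st, and the receptor pair activates Janus kinases that phosphorylate STAT3. STAT3 then switches on genes of the glial response and Socs3, an inhibitor that feeds back on gp130. In light-damaged and inherited retinal degeneration this route is known as a survival signal for photoreceptors.

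Polyadenylated RNA of retina was sequenced in 6 libraries, 2 per group. Control mice received neither light nor drug according to their labels. The light-exposed group was examined 4 days after 1 h of bright light, which the labels give as 10000 lux and the methods of the study as 15000 lux. The third group had the same light and intraperitoneal injections of minocycline, a tetracycline antibiotic, at 45 mg/kg. The labels give daily injections for 4 days, and the methods give 5 days that began the day before light, with 2 injections a day at first and 1 a day later. All mice are of strain CD1 in the labels and BALB/cJ in the methods, which state both sexes, an age of 10 to 14 weeks and 16 h of dark adaptation. Neither source names a vehicle injection for the light-exposed mice of this experiment, so an effect of injection and one of the drug cannot be told apart. The 2 libraries of a group are called replicates by the labels and biological replicates by the methods, and p-values measure only the spread between them. The table heads both of its minocycline columns alike, which leaves them without a replicate number, and they are named A and B here.

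Library totals ran from 15205930 to 22856922 per library. Levels are given as CPM, the counts of a gene per 1e6 counts of the library after TMM normalization. On this scale 3 counts correspond to 0.131 to 0.213 CPM, the most that a gene without counts could hold, for counting error only. Control 1 held 77778 counts of Xist and 11 counts over 4 Y-linked genes, whereas elsewhere Xist had 25 to 188 counts and the Y-linked genes 6532 to 12858, so the control group joined a female and a male library. In all libraries markers of rods, cones and Müller cells were abundant, as the label retina requires. Rod marker counts summed to 93006 and 73274 CPM in the controls, 54909 and 38817 CPM in the light-exposed libraries and 79505 and 85643 CPM in minocycline A and B. Microglia and macrophage markers summed to 30.2 and 36.0 CPM, 241 and 756 CPM, and 62.6 and 29.6 CPM in the same order. Fewer cells of a type and less RNA per cell cannot be told apart in such whole-tissue libraries.

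For the genes whose letters bear on this route, the 250 bases before the start of the gene in RefSeq (mouse build GRCm38.p6) were read 5′ to 3′ on the gene's own strand. Capitals mark a match to TTCNNNGAA, the spaced palindrome that STAT proteins bind, or to TGANTCA, the palindrome that AP-1 proteins bind, and both read the same on either strand. Socs3 (chr11:117969367-117969616, minus strand) is shown as the feedback target, Lif (chr11:4257318-4257567, plus strand) as the ligand that rose after light, and Osmr (chr15:6874314-6874563, minus strand) as the receptor that rose.
Socs3: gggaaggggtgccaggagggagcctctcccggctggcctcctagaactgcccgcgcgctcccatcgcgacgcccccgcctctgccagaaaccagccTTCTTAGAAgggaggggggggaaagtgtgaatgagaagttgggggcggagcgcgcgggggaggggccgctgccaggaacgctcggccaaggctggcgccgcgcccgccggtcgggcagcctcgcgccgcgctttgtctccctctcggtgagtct
Lif: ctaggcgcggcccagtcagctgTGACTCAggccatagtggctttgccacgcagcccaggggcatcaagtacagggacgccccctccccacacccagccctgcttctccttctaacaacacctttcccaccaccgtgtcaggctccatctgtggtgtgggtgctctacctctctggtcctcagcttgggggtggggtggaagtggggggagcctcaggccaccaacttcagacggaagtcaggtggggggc
Osmr: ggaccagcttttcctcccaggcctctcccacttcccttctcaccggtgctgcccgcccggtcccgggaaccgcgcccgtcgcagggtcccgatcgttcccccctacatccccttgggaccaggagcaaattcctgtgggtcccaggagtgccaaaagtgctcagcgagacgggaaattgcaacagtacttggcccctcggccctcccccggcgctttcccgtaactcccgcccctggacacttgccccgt
By the RefSeq starts, the Socs3 match begins 154 bases before the start, and the Lif match 228 bases before it. Osmr held neither motif in this window. Promoters were found for 9 of the 10 genes, all but Cebpd, with 2 for Lifr, and of these 10 promoters 1 held TTCNNNGAA and 2 held TGANTCA (Lif and Cntf). Of 32851 mouse promoters of this length, 7.02% held TTCNNNGAA and 6.75% held TGANTCA, so a match describes the letters and does not show a bound site.

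The genes lie on 7 chromosomes of GRCm38, with spans given here from GENCODE. For Socs3 and Osmr the GENCODE span starts further upstream than RefSeq does, so the stretches printed above lie inside these spans, and for Lif the stretch overlaps the first bases of the span. Edn2 is at chr4:120161206-120167360, Fgf2 at chr3:37348346-37410108, Il6st at chr13:112464070-112510086, Cebpd at chr16:15887286-15891031 and Cntf at chr19:12763660-12765632. Lif (chr11:4257557-4272514), Stat3 (chr11:100885098-100939540) and Socs3 (chr11:117966079-117970047) share chromosome 11. Osmr (chr15:6813577-6874969) and Lifr (chr15:7090614-7197489) are neighbours on chromosome 15, 215.6 kb apart and on opposite strands. The counts cover exons, and some of these exons are shared. Of the Cntf exons, 78.9% (847 bases) also belong to Zfp91 on the same strand. Opposite-strand genes share 640 bases with Fgf2 (Nudt6), 562 bases with Cebpd (Spidr) and 72 bases with Stat3 (Stat5a), and whether the counting used the strand is not given in the sources used here.

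Per length of exon, the most abundant transcript differed between groups. In the controls Lifr led with a mean of 21.1 CPM per kb, followed by Edn2 with 13.8, Stat3 with 12.6 and Il6st with 8.17. Cebpd at 5.36 and Socs3 at 5.01 CPM per kb came next, and Osmr at 0.782, Lif at 0.683, Fgf2 at 0.620 and Cntf at 0.198 were the scarce ones. Neighbours in this order overlapped between the 2 libraries everywhere except from Socs3 to Osmr and from Fgf2 to Cntf. In the light-exposed retinas Edn2 led with 25.8 CPM per kb, and Stat3 with 19.7 also stood above Lifr with 13.4, with no overlap among these 3 genes. With minocycline Lifr was first again with 16.5, and Stat3 with 11.9 overlapped Edn2 with 11.8 CPM per kb.

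**Figure D1:**
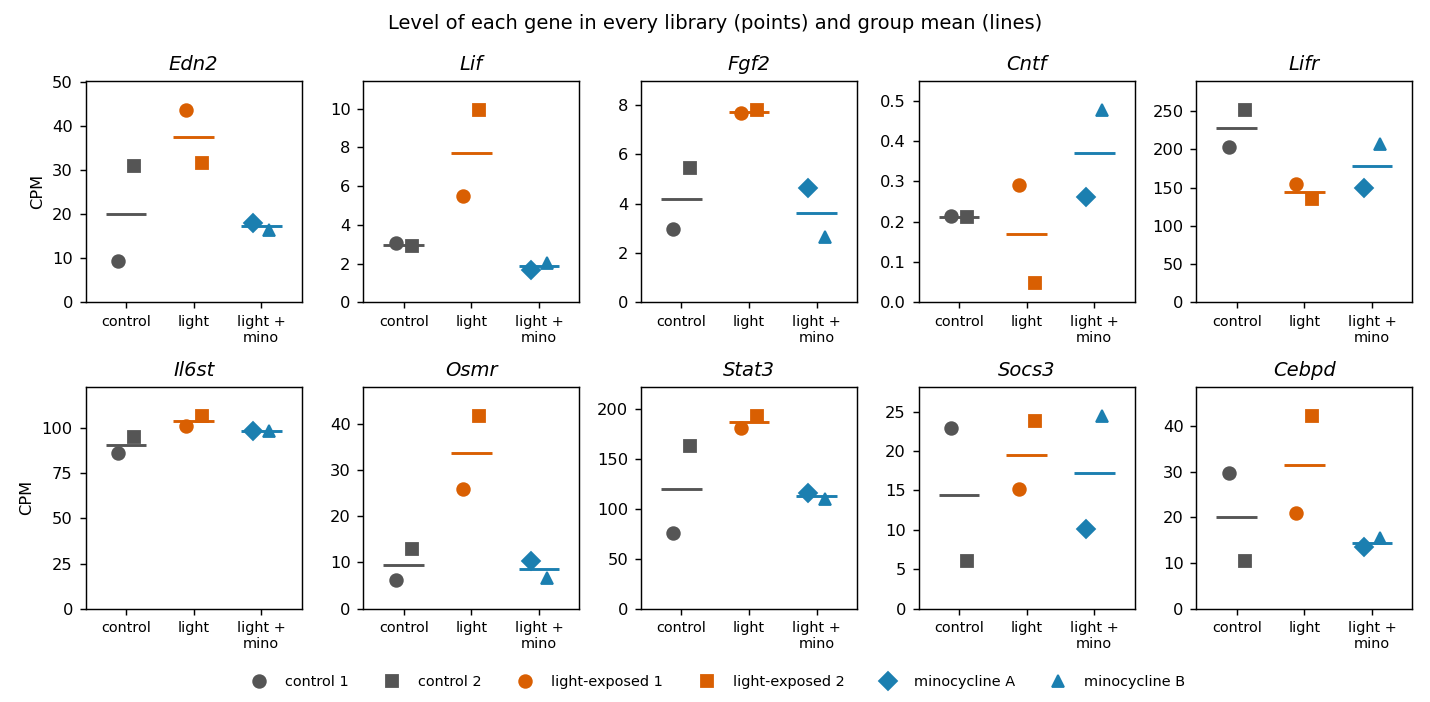
Level of each of the 10 genes in CPM (y axis, from 0, with its own scale per gene) by group (x axis). Each point is 1 library, with the marker shape naming it, and the line is the mean of the 2 libraries. Lif, Fgf2 and Osmr sit higher in both light-exposed libraries than in all 4 others, Lifr sits lower after light than in the controls, and the 2 controls lie far apart for Edn2, Stat3, Socs3 and Cebpd.

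The first comparison set light-exposed against control retinas. The methods describe dark adaptation and pupil dilation with the light exposure and do not say whether the controls had them. The female library was among the controls, so light alone cannot be told apart from these. Of the 9 genes tested, Lif and Osmr rose and Lifr fell. Thus 2 genes passed as higher, where 7.52% of all 14349 tested genes did, and 1 as lower, where 3.80% did. None of them reached the log2 fold change of 2 in size that the study used as its cutoff, which with the adjusted p 2.89% of tested genes reached upwards and 0.0279% downwards. The light-exposed libraries both lay above both controls for 6 genes (Edn2, Lif, Fgf2, Il6st, Osmr, Stat3), against 30.6% of all tested genes, and both below for Lifr, against 30.3%. The median log2 fold change of the 9 genes was 0.66, against 0.00 over all tested genes. Every p below was given by the quasi-likelihood test of edgeR, adjusted by Benjamini-Hochberg over all tested genes.

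Among the secreted factors, Edn2 was the most abundant. It measured 9.39 CPM in control 1 and 31.0 CPM in control 2, 43.7 and 31.6 CPM in light-exposed 1 and 2, with group means of 20.2 ± 15.3 and 37.7 ± 8.53 CPM (SD, n = 2). Light-exposed 2 was barely above control 2, and control 2 was 3.30-fold above control 1, a gap that 0.577% of 13703 genes of at least 1 CPM reached. The log2 fold change of 0.90 (SE 0.69) had an adjusted p of 0.485, with a 95% interval from a 0.43-fold to an 8.13-fold level, so a difference was not detectable with these 2 controls. The log2 fold change was 0.28 without control 1 (adjusted p = 0.466) and 2.00 without control 2 (adjusted p = 0.0502).

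Lif was scarce and even between the controls, at 43 and 41 counts, and stood at 94 and 209 counts in the light-exposed libraries. On the CPM scale these were 3.06 and 2.89, then 5.49 and 9.93. Both light-exposed libraries were clearly above both controls, and light-exposed 2, which also held the most microglial marker counts, was the higher. Lif rose 2.61-fold (95% interval 1.502 to 4.54, log2 fold change 1.38, SE 0.36, adjusted p = 0.0352). The call was lost without control 1 (adjusted p = 0.126), control 2 (0.177) or light-exposed 2 (0.345, log2 fold change 0.89), and with all 6 libraries in one fit (0.0519).

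Fgf2, the basic fibroblast growth factor, is another factor made in stressed retina. It gave 2.99 and 5.42 CPM in the controls and 7.66 and 7.79 CPM after light. The 2 light-exposed libraries were nearly equal and above both controls, and the log2 fold change of 0.88 (SE 0.34) did not pass after adjustment (adjusted p = 0.116). It was 0.51 without control 1 and 1.36 without control 2. Nudt6, which shares Fgf2 exon sequence on the other strand, had 61 and 104 counts in the controls and 123 and 141 after light. Cntf, ciliary neurotrophic factor, had 3 and 3 counts in the controls, 5 and 1 after light and 6 and 9 with minocycline. These counts are at or near the floor in every group and overlap an exon of Zfp91, which held 2025 to 3671 counts per library, so no change of Cntf was readable.

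The receptor chains moved in different directions. Lifr, which binds LIF, gave 204 and 251 CPM in the controls and 155 and 135 CPM after light, without overlap. It fell to 0.638-fold (95% interval 0.497 to 0.819, log2 fold change -0.65, SE 0.16, adjusted p = 0.0315). Osmr, the chain that pairs with gp130 for oncostatin M, gave 6.12 and 12.8 CPM in the controls and 25.9 and 41.7 CPM after light. Osmr rose 3.58-fold (95% interval 1.81 to 7.10, log2 fold change 1.84, SE 0.40, adjusted p = 0.0411), although the controls themselves differed 2.10-fold. The shared chain Il6st gave 86.0 and 95.4 CPM, then 101 and 107 CPM, a narrow step of 0.20 on the log2 scale (SE 0.14, adjusted p = 0.383).

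Both receptor calls hung on few libraries. The Lifr call was lost without control 1 (adjusted p = 0.0649), control 2 (0.133) or light-exposed 2 (0.327), with all 6 libraries in one fit (0.0670), and with scaling by total counts (0.112, log2 fold change -0.42). That scaling moved the median of all tested genes to 0.24, and relative to this shift Lifr kept its direction. The Osmr call was lost without control 1 (adjusted p = 0.0926, log2 fold change 1.40) or control 2 (0.0868, log2 fold change 2.46) and without the filter on low counts (0.0670).

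The balance of the 2 neighbouring receptor genes is free of library scaling. For every 100 counts of Lifr there were 3.0 and 5.10 counts of Osmr in the controls, 16.7 and 30.9 after light, and 6.93 and 3.24 in minocycline A and B. Both light-exposed libraries stood above the 4 others in this ratio, and the minocycline and control libraries overlapped. Lifr counts stayed above Osmr counts in all 6 libraries.

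Stat3 itself gave 76.2 and 163 CPM in the controls and 181 and 193 CPM after light. The light-exposed libraries agreed within a narrow range above both controls, but control 2 lay 2.15-fold above control 1. The log2 fold change was 0.65 (SE 0.37, adjusted p = 0.329). It was 0.19 without control 1 (adjusted p = 0.384), 1.29 without control 2 (adjusted p = 0.0208) and 0.75 with the replicate number as a block (adjusted p = 0.00404), and control 1 is the female library. Whether sex had a part in the gap between the controls was not tested.

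The response genes Socs3 and Cebpd did not separate the groups. Socs3 gave 22.9 and 6.06 CPM in the controls and 15.2 and 23.8 CPM after light, with a log2 fold change of 0.44 (SE 0.75, adjusted p = 0.757). Cebpd, a transcription factor induced downstream of STAT3, gave 29.7 and 10.5 CPM, then 20.9 and 42.2 CPM, with a log2 fold change of 0.66 (SE 0.71, adjusted p = 0.618). In both, control 1 was the high control, 3.78-fold over control 2 for Socs3 and 2.82-fold for Cebpd, gaps reached by 0.321% and 0.876% of genes. For Edn2, Osmr, Stat3 and Fgf2 control 1 was the low one, while the controls were nearly equal for Lif. Without control 1 and without control 2 the log2 fold change was 1.68 and -0.24 for Socs3 and 1.58 and 0.09 for Cebpd, and without light-exposed 2 it was 0.07 and 0.06.

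**Figure D2:**
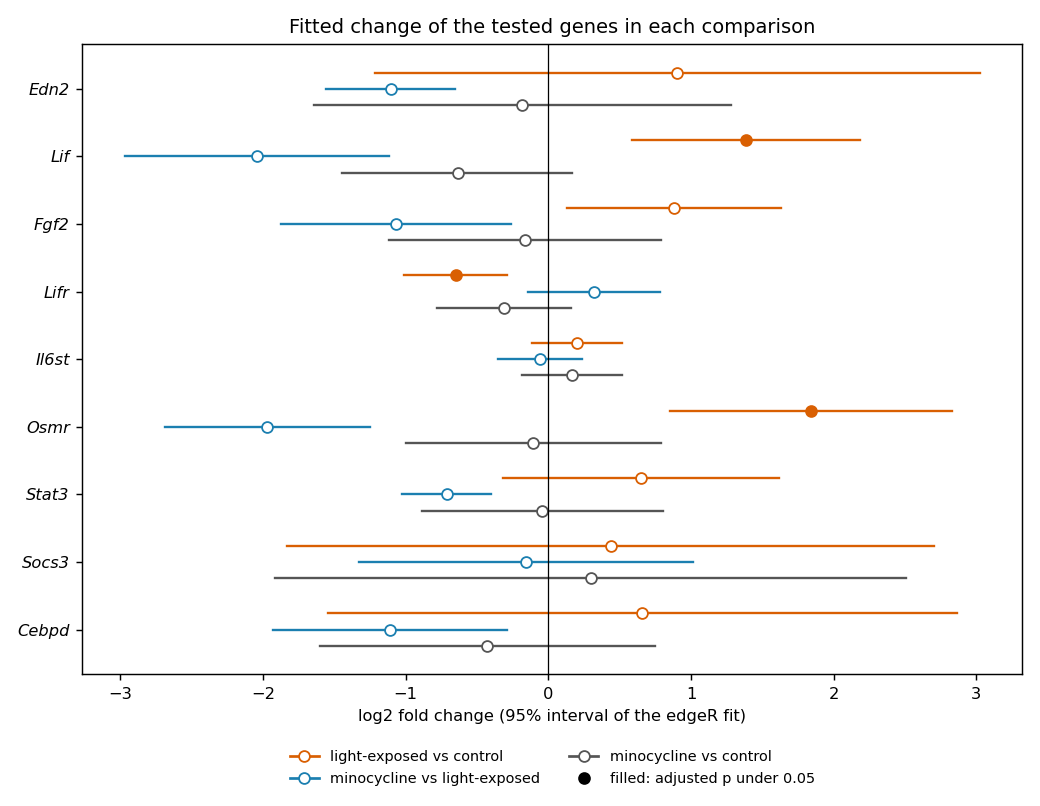
Fitted log2 fold change (x axis) with its 95% interval for the 9 tested genes (y axis), with 1 line per comparison and filled points where the adjusted p was under 0.05. Lif (1.38), Osmr (1.84) and Lifr (-0.65) are filled for light-exposed against control, and no gene is filled in the 2 minocycline comparisons.

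The second comparison set minocycline-treated against light-exposed retinas, which had the same light and differed in the drug and its injection. None of the 9 genes passed edgeR's quasi-likelihood test at an adjusted p of 0.05, where 0.0407% of 14750 tested genes passed as lower and 0.0136% as higher. At an unadjusted p under 0.05, 6 of the 9 were lower (12.1% of all genes) and 0 were higher (9.04%). At an adjusted p under 0.1, 4 were lower (4.10%), and DESeq2 without shrinkage called 5 lower (4.98%). Both minocycline libraries lay below both light-exposed libraries for 7 genes, against 28.8% of all tested genes, and the median log2 fold change of the 9 was -1.07, against 0.01 over all. This comparison shares its light-exposed libraries with the first, so the 2 sets of values are not independent.

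Osmr gave 10.3 and 6.73 CPM in minocycline A and B, below the 25.9 and 41.7 CPM of the light-exposed retinas, a log2 fold change of -1.97 (SE 0.30, 95% interval 0.155 to 0.420-fold). Lif gave 1.70 and 2.01 CPM, a log2 fold change of -2.04 (SE 0.39, 95% interval 0.128 to 0.460-fold). Edn2 gave 18.0 and 16.5 CPM, a log2 fold change of -1.11 (SE 0.19). Stat3 gave 116 and 109.8 CPM, a log2 fold change of -0.71 (SE 0.13). These 4 genes, of ligand, receptor and transducer, had no overlap with the light-exposed libraries and shared an adjusted p of 0.0698.

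The remaining ligand and response genes were less clear. Fgf2 gave 4.62 and 2.65 CPM (log2 fold change -1.07, SE 0.34, adjusted p = 0.143) and Cebpd gave 13.5 and 15.4 CPM (log2 fold change -1.11, SE 0.34, adjusted p = 0.143). Both were lower in each minocycline library than in either light-exposed library. Socs3 gave 10.1 and 24.4 CPM, with B 2.42-fold above A, and a log2 fold change of -0.16 (SE 0.46, adjusted p = 0.886).

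Among the receptors other than Osmr, values stayed close. Lifr gave 149 and 208 CPM, of which A lay within the light-exposed range and B above it (log2 fold change 0.32, SE 0.20, adjusted p = 0.403). Il6st gave 98.6 and 98.7 CPM, a log2 fold change of -0.06 (SE 0.13, adjusted p = 0.830, 95% interval 0.783 to 1.18-fold). Il6st had the smallest log2 fold change of the 9 genes both here and after light.

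In the third comparison, minocycline-treated against control retinas, 0 of the 9 genes passed edgeR's quasi-likelihood test, where 0.162% of 14181 tested genes passed as higher and 0 as lower. At an unadjusted p under 0.05 there were 0 as well (5.39% of all genes higher, 1.62% lower), and DESeq2 without shrinkage gave 0 (1.16% higher, 0.0282% lower). The adjusted p was at least 0.742. The log2 fold changes were -0.18 for Edn2, -0.64 for Lif, -0.16 for Fgf2, -0.31 for Lifr, 0.16 for Il6st, -0.11 for Osmr, -0.04 for Stat3, 0.30 for Socs3 and -0.43 for Cebpd. A missed threshold does not show equal levels, and the 95% interval ran from 0.541 to 1.74-fold for Stat3, from 0.50 to 1.73-fold for Osmr and from 0.320 to 2.42-fold for Edn2. Lif was lower in both minocycline libraries (1.70 and 2.01 CPM) than in both controls (3.06 and 2.89 CPM), with an interval from 0.368 to 1.12-fold.

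The same question was put to 8 lists of related genes, from other ligands to known targets, which were written with earlier results of these data known. Of the 16 known STAT3 targets, 9 rose after light and 0 fell, where 7.52% of all tested genes passed as higher and 3.80% as lower, with a median log2 fold change of 1.57 against 0.00 over all genes. Steap4, a metalloreductase, stood at 0.43 and 0.49 CPM in the controls and at 26.5 and 20.3 CPM after light (log2 fold change 5.65, adjusted p = 2.61e-05). Timp1, an inhibitor of matrix metalloproteinases, went from 0.28 and 0.35 CPM to 8.47 and 6.56 CPM (log2 fold change 4.53, adjusted p = 0.00134). Serpina3n, a protease inhibitor of reactive glia, and Bcl3, a nuclear cofactor of NF-kappaB, had log2 fold changes of 3.87 and 3.61 (adjusted p = 2.09e-05 and 0.00470). In these 4 genes both light-exposed libraries lay above both controls. Of the 16 targets, 10 lay higher in both light-exposed libraries than in both controls (30.6% of all tested genes) and 2 lower (30.3%). The 2 lower were Junb and Pim3, with log2 fold changes of -1.36 and -0.58, which did not pass (adjusted p = 0.312 and 0.0974). The 9 targets that passed became 2 without control 1 and 4 without control 2, while the median log2 fold change was 1.48 and 1.59, and DESeq2 without shrinkage called 8 (8.01% of all tested genes).

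With minocycline 4 of the 16 targets fell against light and 0 rose, where 0.0407% of all tested genes passed as lower and 0.0136% as higher, with a median log2 fold change of -0.96 (-0.33 without light-exposed 2). DESeq2 without shrinkage called 8 lower (4.98% of all tested genes) and 1 higher (3.14%). With scaling by total counts 0 of all tested genes passed edgeR's test, hence no target. With DESeq2 size factors or the upper quartile 2 of all tested genes passed. Steap4 stood at 2.00 and 1.64 CPM (log2 fold change -3.66, adjusted p = 0.0239), Timp1 at 0.52 and 0.58 CPM (-3.74, 0.0444) and Serpina3n at 13.9 and 11.2 CPM (-2.19, 0.0307). The fourth was Lcn2, an iron-carrier protein, named after its values were seen, at 58.0 and 37.5 CPM after light and 5.53 and 3.87 CPM with minocycline (log2 fold change -3.32, adjusted p = 0.0444). The 4 targets with minocycline lay below both light-exposed libraries. Junb and Pim3 lay above both, with log2 fold changes of 1.31 and 0.45, and did not pass (adjusted p = 0.164 and 0.196). By edgeR's quasi-likelihood test Stat3 itself missed the threshold in both comparisons. DESeq2 without shrinkage called 5 signal genes lower with minocycline.

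Of the other partners of gp130, 1 of 3 tested receptor chains rose after light (7.52% of all tested genes did) and none fell (3.80%), a list too short to be read as a group. It was Il6ra, the receptor of interleukin 6, with 0.57 and 0.35 CPM in the controls and 1.46 and 4.70 CPM after light (log2 fold change 2.74, adjusted p = 0.0286). Cntfr, the receptor chain for ciliary neurotrophic factor, and Il11ra1, that for interleukin 11, had log2 fold changes of 0.26 and 0.06 and did not pass. Other gp130 ligands were scarce, and of 8 only 3 could be tested, with 0 passing edgeR's quasi-likelihood test, 2 higher at an unadjusted p under 0.05 (16.5% of all tested genes) and 0 by DESeq2 without shrinkage (8.01% higher). The log2 fold change was 0.49 for Ctf1 and 1.31 for Clcf1 (adjusted p = 0.0913). Osm, oncostatin M, the ligand of the Osmr chain, gave 2 and 1 counts in the controls, 8 and 36 after light and 5 and 4 with minocycline, too few to be tested but higher in both light-exposed libraries than elsewhere.

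Inside the cell, none of 6 Janus kinase and other STAT genes passed in either direction after light, by edgeR's quasi-likelihood test or by DESeq2, while 3 were higher at an unadjusted p under 0.05 (16.5% of all tested genes). Jak1, Jak2 and Tyk2 had log2 fold changes of -0.18, -0.10 and -0.28. Of 9 feedback regulators besides Socs3, 1 fell and 0 rose, against 3.80% and 7.52% of all tested genes, with a median log2 fold change of -0.05. It was Pias3, an inhibitor of STAT3 binding to DNA, at 254 and 267 CPM in the controls and 190.4 and 159 CPM after light (log2 fold change -0.57, adjusted p = 0.0406). The next by level, Ptpn11, was at -0.05 on the log2 scale.

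Of the endothelin genes, 1 of 5 tested rose after light (7.52% of all tested genes did) and none fell (3.80%). Ednrb, the receptor by which Müller cells sense endothelin, stood at 5.69 and 3.80 CPM in the controls and 11.9 and 13.3 CPM after light (log2 fold change 1.41, adjusted p = 0.0180). With minocycline Ednrb was at 9.97 and 14.9 CPM, on both sides of the light-exposed libraries (log2 fold change 0.01, adjusted p = 0.994). The converting enzymes Ece1 and Ece2 had log2 fold changes of 0.54 and 0.27 after light and did not pass. Edn3 had 2, 13, 6 and 6 counts in the control and light-exposed libraries but 138 and 672 counts in minocycline A and B (adjusted p = 0.0844 against light). These 2 libraries also held the most corneal epithelium, smooth muscle and stroma marker counts, with 154 and 239 CPM of corneal markers against 4.86 to 17.2 CPM elsewhere, and the part of such tissue in the Edn3 counts was not tested.

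Of 13 FGF pathway genes, 3 rose after light and 1 fell, against 7.52% and 3.80% of all tested genes. Fgfr1, the receptor that binds FGF2, rose with a log2 fold change of 1.11 (adjusted p = 0.0141), and the FGF response genes Dusp6 and Etv5 rose with 0.96 (0.0263) and 0.90 (0.0404). Spry2, another response gene and an inhibitor of the pathway, fell with -0.82 (0.0132). Other trophic factors had 0 of 3 tested genes passing edgeR's quasi-likelihood test after light (1 higher at an unadjusted p under 0.05, against 16.5% of all tested genes, and 1 by DESeq2, against 8.01%), with Igf1 at a log2 fold change of 1.68 (adjusted p = 0.0914) and Bdnf at 0.53 (0.288). Apart from the STAT3 targets, no gene of the 8 lists passed in minocycline against light by edgeR's test, where 5 of the 43 tested were higher and 9 lower at an unadjusted p under 0.05 (9.04% and 12.1% of all tested genes). DESeq2 without shrinkage called 3 higher and 3 lower (3.14% and 4.98%). After light, of the genes of these lists other than STAT3 targets, 5 rose and 2 fell, but none passed without control 1 and only Spry2 passed without control 2.

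**Figure D3:**
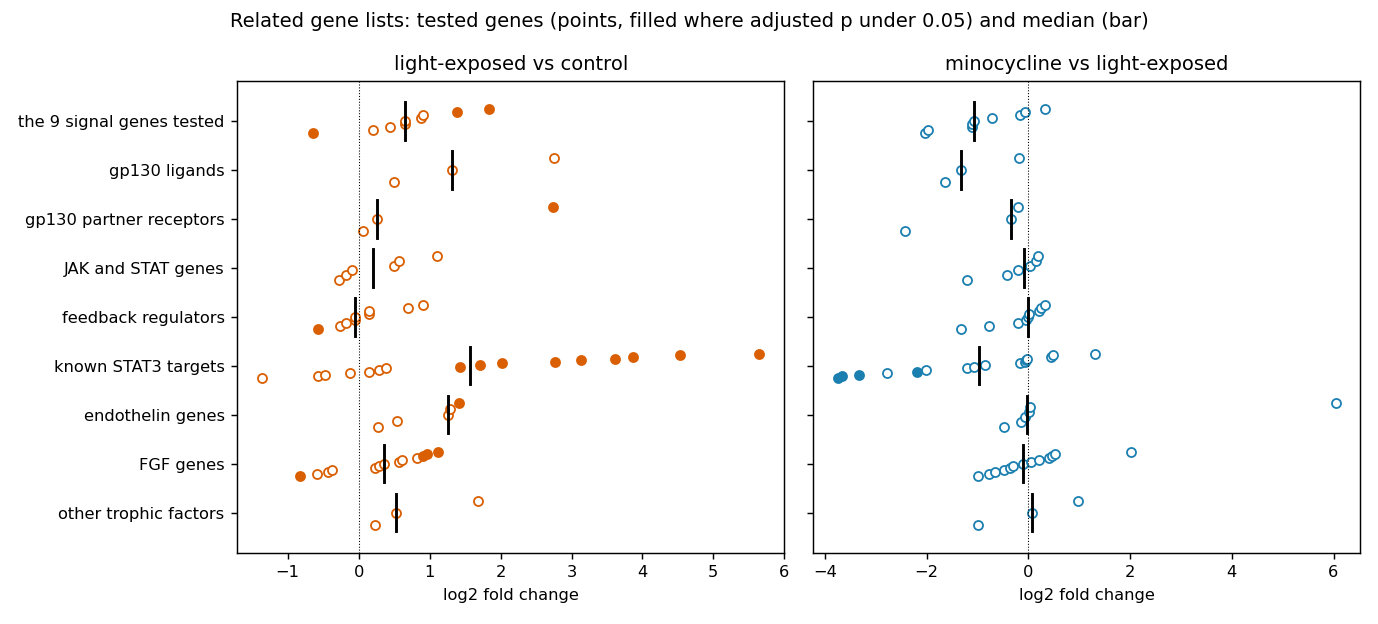
Log2 fold change (x axis) of every tested gene (points) of the signal genes and of each related list (y axis), for light-exposed against control on the left and minocycline against light-exposed on the right. Points are filled where the adjusted p was under 0.05 and bars are medians, which for the STAT3 targets stand at 1.57 after light and -0.96 with minocycline.

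Marker genes of the cells that make or receive these signals were read as well, and most of them did not pass after light. Of 8 Müller cell markers, 1 rose after light (7.52% of all tested genes did), Slc1a3, a glutamate transporter (log2 fold change 1.13, adjusted p = 0.0124). Both light-exposed libraries lay above both controls for 7 of the 8, against 30.6% of all tested genes, and their median log2 fold change was 0.69. The summed level of these markers was 2737 and 1836 CPM in the controls, 2989 and 3309 CPM after light and 3416 and 2549 CPM with minocycline. Of 9 microglia and macrophage markers 4 rose after light (Cx3cr1, Tmem119, P2ry12, Aif1), where 7.52% of all tested genes did. Not all of these 4 calls held with control 1 left out. All 9 markers were higher in both light-exposed libraries than in both controls, against 30.6% of all tested genes. All 8 rod markers were lower in both light-exposed libraries than in both controls, against 30.3% of all tested genes, with Nrl alone passing as lower, as did 3.80% of all tested genes (log2 fold change -0.96, adjusted p = 0.0296). Endothelial markers summed to 202 and 174 CPM, 267 and 344 CPM, and 269 and 196 CPM. Most of each sum was Kdr, at 136 and 112 CPM, 197 and 254 CPM, and 188 and 130 CPM. It was the 1 of 6 that passed after light (7.52% of all tested genes did), with a log2 fold change of 0.87 (adjusted p = 0.0166). Cldn5, Cdh5 and Tie1 were at -0.20, 0.14 and 0.36, with overlap between the groups. Monocyte and neutrophil markers summed to 0.640 and 0.211 CPM in the controls, 1.64 and 2.09 CPM after light and 0.914 and 0.371 CPM with minocycline. Their counts were too few to be tested after light. Lymphocyte markers did not exceed 1.24 CPM in sum, and 2 of them were at 0 in every library.

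The light-exposed library with the higher Lif, Osmr, Socs3 and Cebpd, light-exposed 2, was also the one with 756 against 241 CPM of microglial markers and 38817 against 54909 CPM of rod markers. Edn2 ran the other way, at 43.7 CPM in light-exposed 1 and 31.6 CPM in light-exposed 2. In minocycline A and B, where microglial markers were at 62.6 and 29.6 CPM, Osmr was 10.3 and 6.73 CPM and Lif was 1.70 and 2.01 CPM. Pigment epithelium markers summed to 127 CPM in control 1 and 320 CPM in control 2, the same side on which Edn2, Osmr, Stat3 and Fgf2 were higher. The part of these cell types in the levels of the 10 genes was not tested.

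**Figure D4:**
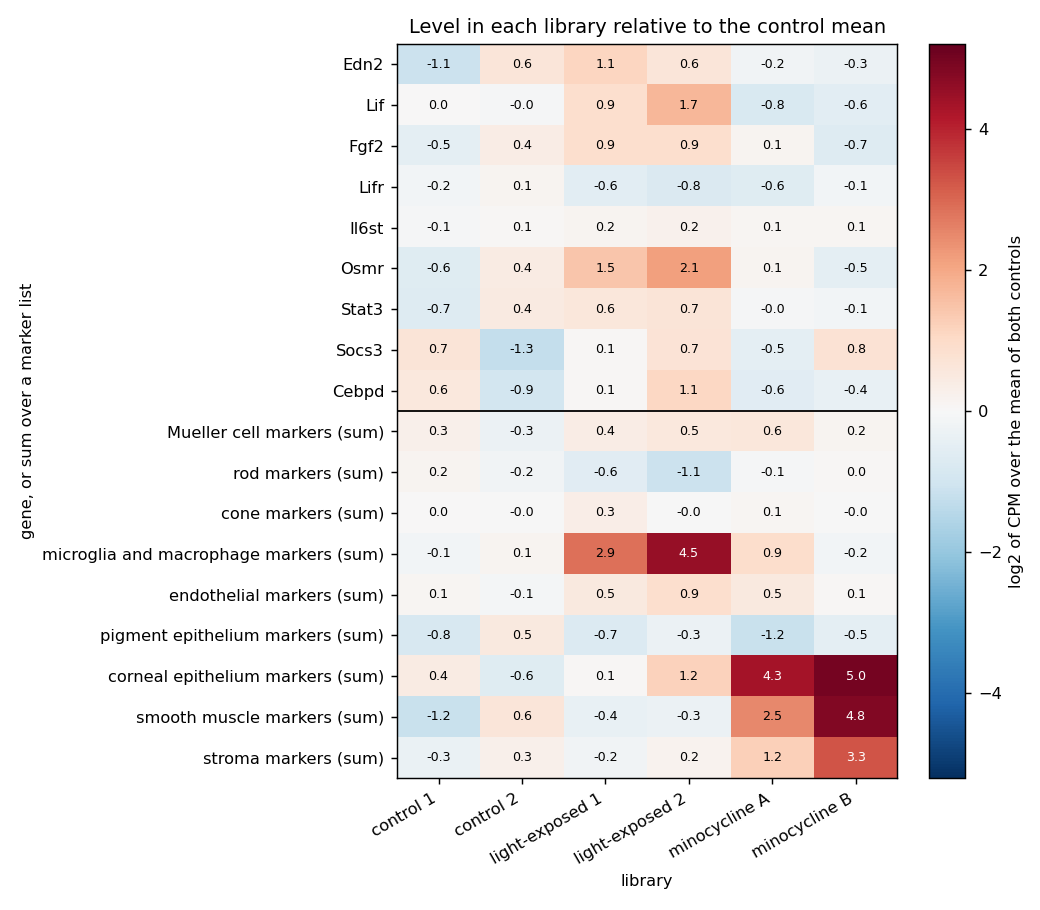
Log2 of the level in each library (x axis) over the mean of the 2 controls, for the 9 tested genes and for summed cell type markers (y axis), with the value in each cell and red for higher. Osmr is at 1.5 and 2.1 and microglial markers at 2.9 and 4.5 in the light-exposed libraries, and corneal markers are at 4.3 and 5.0 in the minocycline libraries.

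The genes whose levels over the 6 libraries ran closest to 3 of the signal genes were sought among 13694 genes with a mean of at least 1 CPM. Likeness was the root mean square difference of log2 CPM after centring each gene on its own mean, and it is a description over 6 libraries that share their depth and cell makeup. Closest to Edn2 were C030016D13Rik (0.133), Zmynd12 (0.162) and Gdpd2 (0.175). Like Edn2, C030016D13Rik stood at 0.924 and 2.82 CPM in the controls and 4.03 and 2.85 CPM after light, with the same low control 1. Closest to Lif were Abi3 (0.198), Pyroxd2 (0.209) and Hkdc1 (0.220), and Abi3 stood at 1.64, 1.34, 3.10, 5.23, 1.22 and 1.27 CPM in control 1 and 2, light-exposed 1 and 2 and minocycline A and B. Closest to Stat3 were Tstd1 (0.102), Stk10 (0.127) and Lad1 (0.134), each lower in control 1 than in any other library.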

How the data were processed

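Retinal RNA was sequenced with 50-cycle single reads from stranded mRNA libraries. The authors aligned reads to mm10 (GRCm38) with STAR and counted them per gene in RNA Express. The deposited values are counts per gene, whole and unscaled, although the data statement calls them normalized, for 23420 genes, and 4791 of these had no counts at all. The versions of STAR and DESeq2, the annotation and the strand setting are not given in the sources used here. All value columns were used (0 unused).

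Pairs of groups were compared over all genes with edgeR 4.0.16 (R 4.3.3), using filterByExpr, TMM and a robust quasi-likelihood test, with p adjusted by Benjamini-Hochberg and a threshold of 0.05. DESeq2 1.42.0 and other scalings, filters, thresholds and left-out libraries were alternatives. Log2 CPM used a prior count of 2. Lengths are the union of annotated exons. Intervals are at 95% confidence and cover only the spread between these libraries. Total counts of 15205930 to 22856922 limit precision for the scarce genes.

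The members and lists were chosen with earlier results of these data known. Named were all 10 genes, up to 4 genes of each list (those passing, by size of change after light, or else the most abundant) and the 3 genes most like Edn2, Lif and Stat3. Of the STAT3 targets, Lcn2, Junb and Pim3 were named after their values were seen. Promoters came from RefSeq. Reads were not analysed here, and 2 genes of the lists are not reported here by name.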

Additional observations from a re-analysis of the deposited data

How the results depend on the processing

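After light, the count of signal genes passing as higher (2 as reported) was 1 without the filter on low counts, 1 with all 6 libraries in one fit and 0 with the added log2 fold change cutoff of 2, and 0 to 2 with each library left out. The count passing as lower (1) was 0 with total library size, with all 6 libraries in one fit and with that cutoff, and 0 to 1 with each library left out. Over all genes 1624 passed, and 2525 with the replicate block. Fewer passed with control 1, control 2 or light-exposed 2 left out, fits in which the lone library is assumed to vary like the other group. With minocycline against light the count passing as lower (0) was 4 without the filter, 2 with all 6 libraries in one fit, 5 with DESeq2 with or without a prior on fold changes, 4 at an adjusted p under 0.1, and 0 to 3 with each library left out (3 without light-exposed 1). Over all genes 8 passed there, and 0 to 1197 in the alternatives. Against control the signal genes numbered 0 throughout, and of all genes 23 passed, with 0 to 480 in the alternatives. Scaling by total library size moved the median of all genes by 0.24 after light and to -0.17 with minocycline against light, and no signal gene changed direction under any scaling.

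Directions reversed only with a library left out, and the log2 fold changes then spanned these ranges. After light Socs3 ran from -0.24 (without control 2) to 1.68. With minocycline against light Socs3 ran from -0.94 to 0.36 (0.18 without light-exposed 2, 0.36 without minocycline A). Against control the ranges were -0.81 to 0.93 for Edn2, -0.63 to 0.34 for Fgf2, -0.55 to 0.53 for Osmr, -0.50 to 0.62 for Stat3, -0.51 to 1.54 for Socs3 and -0.99 to 0.50 for Cebpd. Without control 2 Edn2, Fgf2, Osmr, Stat3 and Socs3 (-0.36) reversed, without minocycline B Fgf2 (0.14), Osmr (0.13) and Socs3, and without control 1 Cebpd. The cause was not tested. The level of Cntf in light-exposed 2, at 1 count, moved to -3.73 log2 CPM with a prior count of 0.5.

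The replicate block, possible only for light against control, gave 3 signal genes higher, Stat3 among them (log2 fold change 0.75), and changed no other call among them. Over all tested genes, the deviations of same-numbered control and light-exposed libraries were not correlated (r = -0.00794). The controls also differed in sex and the light-exposed libraries in microglial markers, so this value cannot show whether same-numbered libraries were handled together. Whether they share more than a number was not tested. No paired analysis was possible because of the shared column header where minocycline was compared.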
